A study of Caenorhabditis elegans with 6 samples.

Results

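The numbered collagen genes of the nematode Caenorhabditis elegans were described here as 1 family, on 6 whole-genome arrays, 3 from ung-1 mutants and 3 from wild type N2 worms. The members are the genes whose single symbol in the array annotation is col followed by a number, which gave 128 genes out of 17118 named by the array. They were represented by 144 probe sets, and where a gene had more than 1, the probe set with the highest mean over the 6 arrays was taken. The rule selects genes by name, and the family itself was picked for description with earlier results of these data known. Of the 159 numbered collagen genes in the RefSeq gene table, 20 stood on this array only on probe sets that name several genes, and 11 were not analysed here.

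The study compared an ung-1 mutant with N2, the standard laboratory strain, with 3 arrays in each genotype that the labels call biological replicates. The product of ung-1 is the uracil-DNA glycosylase of this worm, which cuts uracil out of DNA as the opening step of base excision repair. No allele, stage, age, temperature, feeding or treatment of the worms was given. The worms were described as RNAi mutants in the design text but simply as mutants on the samples. Since separate cultures were not described, p-values measure only the spread between these samples, which may be technical. Biotin-labelled total RNA was read on Affymetrix arrays of the worm genome. Levels are intensities of probe sets in arbitrary units, where a probe set is the group of short probes that reads 1 transcript. Means are printed ± SD over n = 3 arrays, and other values array by array in the order of replicates 1, 2 and 3.

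The ung-1 probe set read 54.9, 55.3 and 47.7 in the mutant and 236, 254 and 296 in N2, so its 3 mutant arrays lay below its 3 N2 arrays (log2 fold change -2.01, SE 0.15, limma adjusted p = 0.0765). The median array intensity ran from 152.82 to 167.85. For GAPDH the 3′ control probe set over the 5′ one, a measure of RNA integrity, ran from 5.01 to 8.77 in the mutant and from 8.30 to 11.8 in N2 (two-sided exact permutation p = 0.2, where 0.1 is the smallest p that 3 against 3 arrays allow). The same ratio had means of 3.49 and 4.53 for actin, 4.11 and 4.92 for ubiquitin and 28.1 and 29.3 for catalase in the mutant and N2, so all 4 means were lower in the mutant (exact permutation p from 0.2 to 0.6, unadjusted over the 4 ratios). Precision is limited by having 3 arrays a genotype.

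The worm's body is covered by a cuticle, an outer matrix built largely of collagens that the underlying epidermis makes and secretes. A cuticle collagen is a short chain with stretches of glycine-X-Y repeats, and 3 chains wind into a triple helix, are cleaved, and are then cross-linked in the matrix. A new cuticle is made in the embryo and again at each moult, and many collagen genes are switched on in brief pulses within each moult cycle, while others belong to 1 stage, such as the adult or the dauer larva. The numbered genes are the bulk of this family, and most of them have no mutant phenotype in their name, unlike the dpy, sqt, rol and bli collagens. In RNA of a bulk sample, fewer cells or animals that express a gene and less RNA of it per cell cannot be told apart.

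The family ran from the brightest probe sets of the array down to the 10.6th percentile, where col-40 lay. By mean intensity, 31 members (24.2%) lay above the 90th percentile of all probe sets, called bright here, against 11.1% of all named genes. The excess lay in the 51 members whose probe sets carry an ending that marks several possible transcripts, of which 23 (45.1%) were bright. Of the 77 members without such an ending, 8 (10.4%) were bright, near the share of all named genes. That share covers genes with and without such an ending and was not split by it. Only 8 members (6.25%) lay below the 25th percentile, called dim here, against 24.1% of all named genes. The remaining 89 lay between these bounds, and 10 members lay above the 99th percentile. At the bright bound the nearest members were col-142, at a mean of 1453.6, and col-39, at 1076.9. At the dim bound they were col-53, at 87.13, and col-91, at 79.75. An intensity depends on the probes as well as on the RNA, so these are places on the array and not amounts of RNA, and no detection calls were used.

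**Figure D1:**
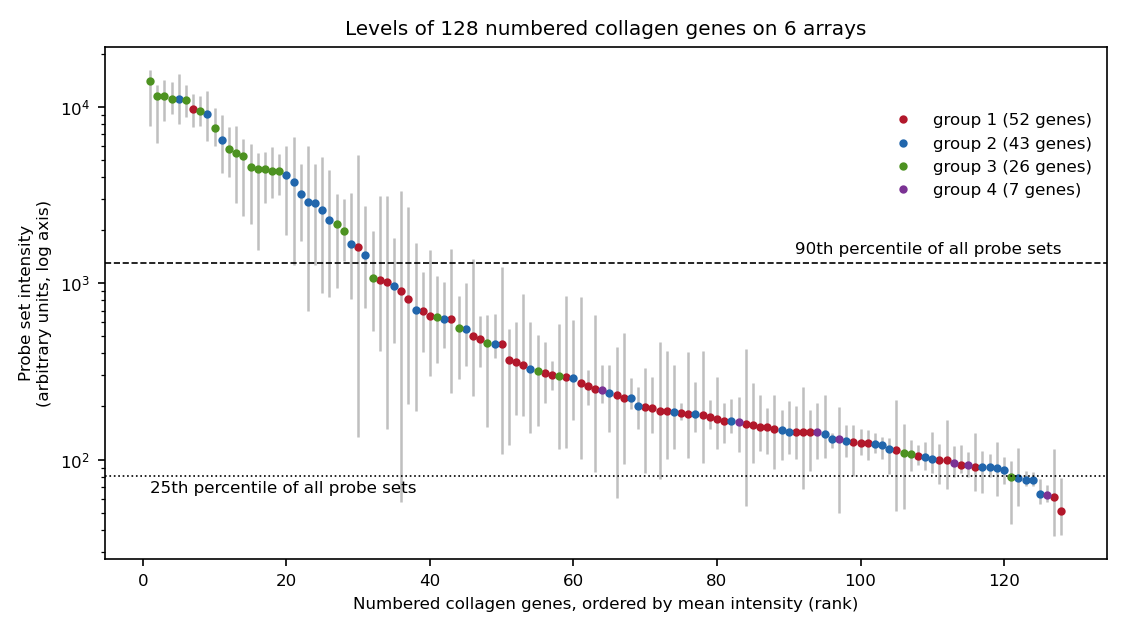
Each point is the mean intensity of 1 numbered collagen gene over 6 arrays (vertical log axis, arbitrary units), with genes ordered by that mean on the horizontal axis; grey lines run from the lowest to the highest array, and colours mark the 4 groups of genes that vary together. The 31 genes above the dashed line are bright and the 8 below the dotted line are dim, and the longest grey lines belong to genes of group 1.

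The 6 members with the highest mean were col-93, col-125, col-160, col-73, col-119 and col-17. Each of them was read by a probe set whose ending marks several possible transcripts. The brightest, col-93, read 15963, 16104 and 15576 in the mutant and 13308, 7829 and 15076 in N2. It was high on 5 arrays and lower on N2 replicate 2. The probe set of col-125 read 12871, 13316 and 12859 in the mutant and 11781, 6226 and 11910.0 in N2, with the same low array. The larval collagen gene col-17, which the heterochronic factor LIN-29 is known to repress at the adult stage, read 10912, 13323 and 11050.0 in the mutant and 8799.5, 9636 and 11427 in N2. All 6 arrays were bright for col-17, with a ratio of 1.51 between the highest and the lowest. The 6 members with the lowest mean were col-105, col-83, col-78, col-163, col-141 and col-40, at means from 51.14 to 76.39. The dimmest, col-40, read 44.95, 38.17 and 78.85 in the mutant and 37.55, 44.18 and 63.16 in N2, highest on mutant replicate 3.

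Many bright values may stand for more than 1 gene. Of the 31 bright members, 23 were read by probe sets whose identifiers end in _s_at or _x_at, which mark probes that can match several transcripts, as were 51 of all 128 members. The probe sets of col-73 and col-17 followed each other closely (Pearson r = 0.995 over the 6 arrays, a description), and col-73 read 10921, 13789 and 11500.0 in the mutant and 9101, 9878 and 11595 in N2. A further 17 probe sets name 2 or 3 collagen genes each and were not members. Of these, 14 were bright, among them the shared probe sets of col-92 with col-94, col-3 with col-117, col-12 with col-13 and col-10 with col-144. On 13 of the 17, N2 replicate 2 was the lowest array, and the brighter of the pair for col-92 with col-94 read 15414, 16569 and 15226 in the mutant and 13727, 9222 and 15101 in N2.

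In 16 member genes a second probe set could be set beside the one used. The pair differed more than 2-fold in mean intensity in 7 genes and had log2 fold changes of opposite sign in 3 genes. The widest gap was in col-157, whose probe sets had means of 9431 and 93.4, the brighter of them with an _x_at ending. The gene col-157 was thus bright on 1 probe set and below the array's median on the other. By contrast, the pairs of col-93, col-147 and col-160 differed by 1.03-fold, 1.13-fold and 1.22-fold and followed each other over the arrays (r from 0.958 to 0.984). The probe sets of col-69, col-75 and col-109 had r of -0.0325, -0.199 and -0.164. Those of col-99, col-56, col-157 and col-150 had r of only 0.138, 0.183, 0.287 and 0.293. The patterns of these genes thus hold for the probe set used and not for the other.

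Collagen levels differed widely between arrays, within a genotype as well as across both. The wider of each gene's ranges within a genotype had a median of 0.93 on the log2 scale for members and 0.60 for all genes. Over all 6 arrays, in 79 members (61.7%) the highest array read over 2-fold above the lowest, against 32.6% of all genes, and in 30 members (23.4%) over 4-fold, against 4.60% of all genes. The median ratio of highest to lowest array was 2.23 for the members and 1.71 for all genes. In 124 of 128 members the range between the 3 arrays of at least 1 genotype exceeded the difference between genotypes on the log2 scale. The same held for 16724 of 17118 genes. The first principal component over the 6 arrays held 58.6% of the members' variance, and 37.6% for all genes.

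The largest swings belonged to col-37, col-2, col-158, col-114 and col-84. The gene col-2, described in this worm as a collagen of the dauer larva, read 134.7, 685.1 and 5346 on mutant replicates 1, 2 and 3, and 229.6, 849.0 and 2399.7 on N2 replicates 1, 2 and 3. Both arrays numbered 3 were its highest pair and both numbered 1 its lowest pair, and the whole range was 39.7-fold. The gene col-37 read 57.12, 387.2 and 3322.1 in the mutant and 111.2, 570.7 and 950.0 in N2, a 58.2-fold range with the same order of arrays within each genotype. The gene col-158 read 149.6, 446.3 and 3136.1 in the mutant and 240.4, 597.1 and 1547.2 in N2, and r between col-2 and col-158 was 0.996. These 3 genes thus differed far more within a genotype than between the genotypes, whose values overlapped. At the other end, among members above the 25th percentile, col-64, col-76 and col-56 moved least, and col-76 read 180.3, 181.8 and 209.5 in the mutant and 171.6, 193.7 and 167.3 in N2.

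Members were sorted into 4 groups by how alike their log2 levels ran over the 6 arrays, using average linkage on 1 minus Pearson r. The groups were made from these values and are a description with no test. Members fitted their groups unequally. Their r with the group's mean profile had a median of 0.869, 0.717, 0.866 and 0.824 in groups 1 to 4. The lowest r was 0.303, 0.084, 0.356 and 0.716, so some members followed their group only loosely. All points share the same 6 arrays and both genotypes. Over all 8128 pairs of members the median r was 0.169, and over all pairs of named genes it was 0.041. With each genotype's mean subtracted it was 0.069 for members and 0.048 for all genes. Of the member pairs, 9.65% had r above 0.8 and 1.99% below -0.8, against 5.27% and 3.65% of all pairs. The family thus did not move as a single block, and its median r was small.

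**Figure D2:**
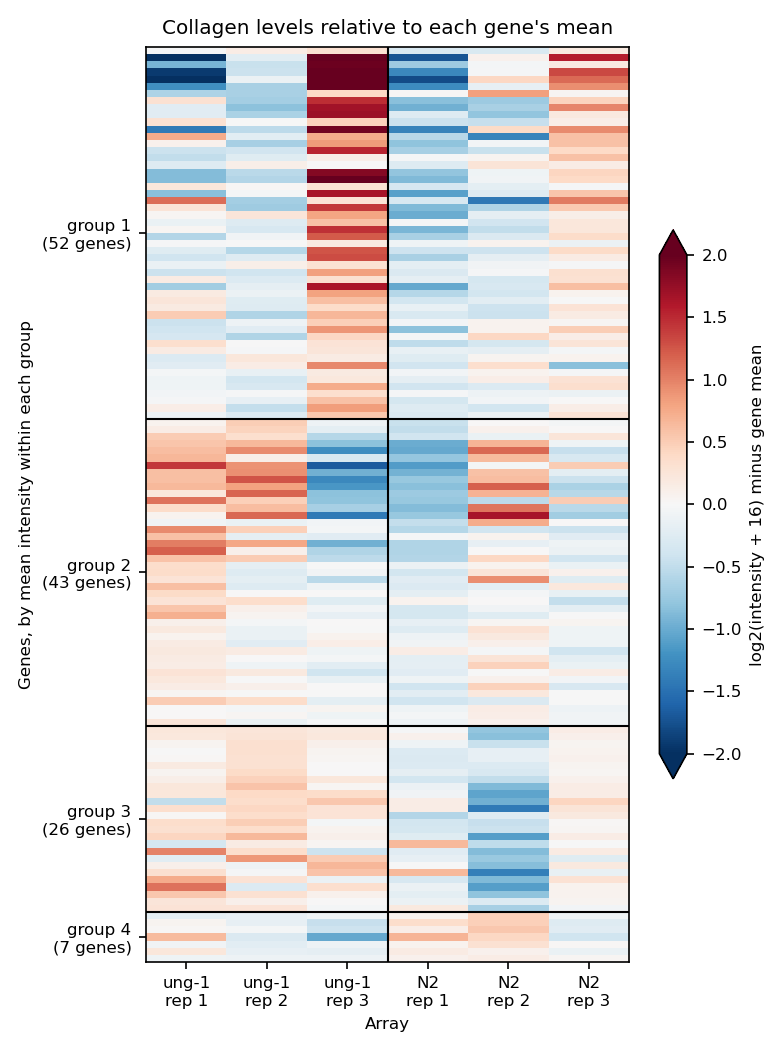
Each row is 1 of 128 numbered collagen genes and each column 1 array, with colour for log2(intensity + 16) minus the gene's own mean; rows are sorted by group and by mean intensity. Group 1 is red on mutant replicate 3 and mostly on N2 replicate 3, and group 3 is blue on N2 replicate 2.

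The first group held 52 genes (40.6%), mostly of middle brightness, with 2 bright and 2 dim. Mutant replicate 3 was the highest array in 44 of them. Relative to each gene's mean, the group's median log2 level was 0.76 on mutant replicate 3 and 0.27 on N2 replicate 3. It was -0.13 and -0.25 on mutant replicates 1 and 2, and -0.39 and -0.18 on N2 replicates 1 and 2. In 32 of the 52 genes the arrays numbered 3 were the highest pair. The group held col-2, col-37, col-158, col-114 and col-84 and 21 of the 30 members with over 4-fold range.

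The 3 genes closest to the mean of the first group were col-102, col-35 and col-50. The gene col-102 read 210.2, 218.1 and 864.5 in the mutant and 177.2, 210.1 and 388.8 in N2, and col-35 read 72.18, 109.9 and 426.2 in the mutant and 54.35, 98.17 and 199.9 in N2. In both, mutant replicate 3 stood above all other arrays and N2 replicate 3 came next. The pair col-45 and col-123 had the highest r of all member pairs, at 0.999. The gene col-45 read 116.5, 149.3 and 844.3 in the mutant and 123.8, 209.9 and 309.6 in N2, and col-123 read 102.2, 127.3 and 839.5 in the mutant and 101.1, 188.6 and 268.6 in N2. Both were over 2-fold higher on mutant replicate 3 than on the next array, N2 replicate 3.

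The second group held 43 genes (33.6%), 12 of them bright. Mutant replicate 1 was the highest array in 22 of them and N2 replicate 2 in 15, while N2 replicate 1 was the lowest in 20 and mutant replicate 3 in 15. In 20 of the 43 genes mutant replicate 3 and N2 replicate 1 were the lowest pair. Its median log2 level relative to gene means was 0.36, 0.11 and -0.19 on mutant replicates 1, 2 and 3, and -0.37, 0.10 and -0.09 on N2 replicates 1, 2 and 3. The 3 genes closest to its mean were col-186, col-20 and col-181. The gene col-20 read 5491, 5837 and 2106.1 in the mutant and 1871.5, 5970.0 and 3502.0 in N2, and col-181 read 3814.5, 4711.4 and 1271.2 in the mutant and 1294.1, 3742.8 and 2184.1 in N2. Both were low on mutant replicate 3 and N2 replicate 1, high on mutant replicates 1 and 2 and N2 replicate 2, and between these on N2 replicate 3. The bright gene col-106 ran nearly alike with a 5.3-fold range, reading 4704.0, 5909 and 1273.8 in the mutant and 1491.5, 6749.9 and 2219.0 in N2.

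The second group also held col-19, an adult collagen gene that LIN-29 is known to switch on at the last moult. It read 553.2, 1186.7 and 188.8 in the mutant and 307.8, 1693.0 and 320.4 in N2. Mutant replicate 2 and N2 replicate 2 were its highest arrays and mutant replicate 3 its lowest, with a ratio of 8.97 between extremes. The dauer collagen gene col-2 and the adult collagen gene col-19 were thus not highest on the same arrays: mutant replicate 3 was the highest for col-2 and the lowest for col-19. Of the collagen genes known to be made at the L4 stage, the last larval stage, col-38 read 622.3, 283.7 and 168.2 in the mutant and 167.2, 265.2 and 240.2 in N2 and col-63 read 670.8, 391.0 and 378.7 in the mutant and 432.8, 467.9 and 376.6 in N2. Mutant replicate 1 was the highest array for both. The third, col-49, was dim and read 115.6, 103.8 and 65.24 in the mutant and 54.22, 59.81 and 75.98 in N2, also highest on mutant replicate 1. All 3 fell in the second group, as did col-120, whose overexpression is known to lengthen life in this worm and which read 213.2, 149.8 and 115.5 in the mutant and 146.5, 345.0 and 144.9 in N2.

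The third group held 26 genes (20.3%) and most of the brightest members, with 17 bright and a median at the 98th percentile. N2 replicate 2 was the lowest array in 22 of the 26, and mutant replicate 2 the highest in 16. The median log2 level relative to gene means was -0.77 on N2 replicate 2 and from -0.145 to 0.321 on the other 5 arrays. Of its probe sets, 18 carried an ending that marks several possible transcripts, and the part of shared probes in this likeness was not tested. The genes closest to its mean were col-93, col-147 and col-139. The gene col-147 read 5806, 6573 and 6393 in the mutant and 4745.7, 2390.2 and 5496 in N2, and col-139 read 2729.4, 3195.3 and 2180.6 in the mutant and 1707.5, 938.5 and 2248.3 in N2. Both had their lowest value on N2 replicate 2. The range was wider in col-107, at 3.57-fold, which read 5241, 5494 and 4980.4 in the mutant and 4561.1, 1539.1 and 4940.8 in N2. For all named genes above the 90th percentile the median relative level on N2 replicate 2 was 0.027. That array was the lowest in 19.54% of these genes, against 14.35% of all genes. They were not split by the ending of their probe sets.

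The fourth group held 7 genes, col-75, col-126, col-127, col-151, col-163, col-177 and col-187, none of them bright. Their median log2 level was highest on N2 replicate 2, at 0.41, and lowest on mutant replicate 3, at -0.18. The gene col-127 read 163.7, 138.7 and 110.5 in the mutant and 206.7, 225.3 and 129.0 in N2, and col-126, its neighbour in the genome, read 142.1, 134.8 and 100.2 in the mutant and 154.6, 209.9 and 116.8 in N2. The order of arrays was the same in both genes. A probe set that names both, not a member, had another order and read 132.8, 94.17 and 108.0 in the mutant and 99.2, 107.8 and 107.2 in N2. The gene col-151 had a 3.97-fold range and read 191.3, 94.16 and 50 in the mutant and 198.3, 162.4 and 86.03 in N2.

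**Figure D3:**
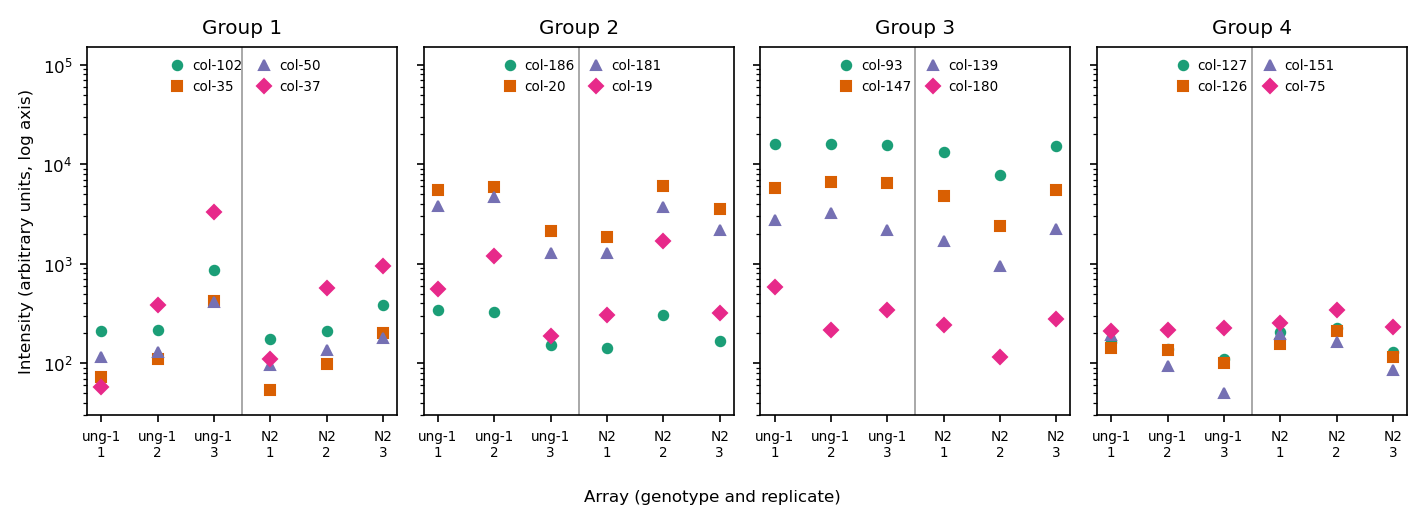
Intensity (vertical log axis, arbitrary units) on the 3 ung-1 and 3 N2 arrays of the 3 genes closest to each group's mean and the gene of that group with the widest range among the rest; each symbol is 1 gene on 1 array. In the 4 genes shown of group 1, both arrays numbered 3 are the highest pair. In the 4 genes shown of group 2, mutant replicate 3 and N2 replicate 1 are the lowest pair. In group 3, N2 replicate 2 is lowest for all 4 genes shown, and in group 4, col-151 is lowest on mutant replicate 3.

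Other members with a described role were spread over the groups. Of 3 collagen genes known to respond to the BMP body size pathway, col-41 lay in the third group, col-142 in the second and col-141 in the first. The bright gene col-142 read 2738.6, 1793.4 and 726.3 in the mutant and 753.1, 881.9 and 1828.1 in N2, and its next gene in the genome, col-141, was dim and read 64.51, 36.97 and 114.6 in the mutant and 45.32, 41.07 and 64.92 in N2. The gene col-99, which encodes a transmembrane collagen with a role in the nervous system rather than a cuticle protein, read 247.4, 325.7 and 299.2 in the mutant and 247.6, 362.6 and 336.2 in N2. Its 1.47-fold range was among the narrower ones of the first group, and its r with that group's mean profile was the lowest of the group, at 0.303. A second probe set of col-99 had a mean of 68.7 and r of 0.138 with the one used.

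Among 12 pairs of members that are next to each other in gene order, 4 pairs fell in the same group. Of all 8128 pairs of members, 1326, 903, 325 and 21 lay within groups 1 to 4. Over the 6 arrays, r of the 12 neighbour pairs ran from -0.54 to 0.97, with a median of 0.42. The pairs col-50 with col-51 (r = 0.966), col-126 with col-127 (0.944) and col-159 with col-160 (0.942) ran together. In the pairs col-126 with col-127 and col-159 with col-160, both probe sets had an _s_at or _x_at ending. The part of shared probes in this likeness was not tested. The pair col-183 and col-184 ran apart (r = -0.54), with col-183 at 105.3, 157.8 and 411.2 in the mutant and 100.6, 132.5 and 218.2 in N2 and col-184 at 2978.6, 3317.0 and 837.9 in the mutant and 1056.5, 4358.1 and 1223.2 in N2. The gene col-183 was highest on mutant replicate 3, where col-184 was lowest. The genes col-17, col-20 and col-73 follow each other in the genome, and col-20, between the others, had r of 0.449 and 0.397 with them.

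Genes outside the family also differed between these arrays. The 5 yolk protein genes measured, which adult hermaphrodites express in the intestine, had a summed intensity of 79280.0, 70750.0 and 28294 on mutant replicates 1, 2 and 3, and 73753, 64049 and 62338 on N2 replicates 1, 2 and 3. Mutant replicate 3 was lower than the rest, with vit-5 at 21698, 20889 and 3608.7 in the mutant and 21109, 18870.0 and 17868 in N2. The 22 major sperm protein genes measured summed to 62657, 74730.0 and 24770.0 in the mutant and 26449, 61566 and 53438 in N2. They were thus lowest on mutant replicate 3 and N2 replicate 1. That pair of arrays was also the lowest in 20 of the 43 genes of the second group, among them col-20, col-181 and col-106. The 12 oocyte and eggshell genes had a summed intensity from 51035 to 77136 in the mutant and from 67987 to 83605 in N2, with mutant replicate 3 lowest. No gene of these 3 marker lists was at 0. Stage and tissue make-up of the samples is not in the labels, and the part of either in the collagen patterns was not tested.

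**Figure D4:**
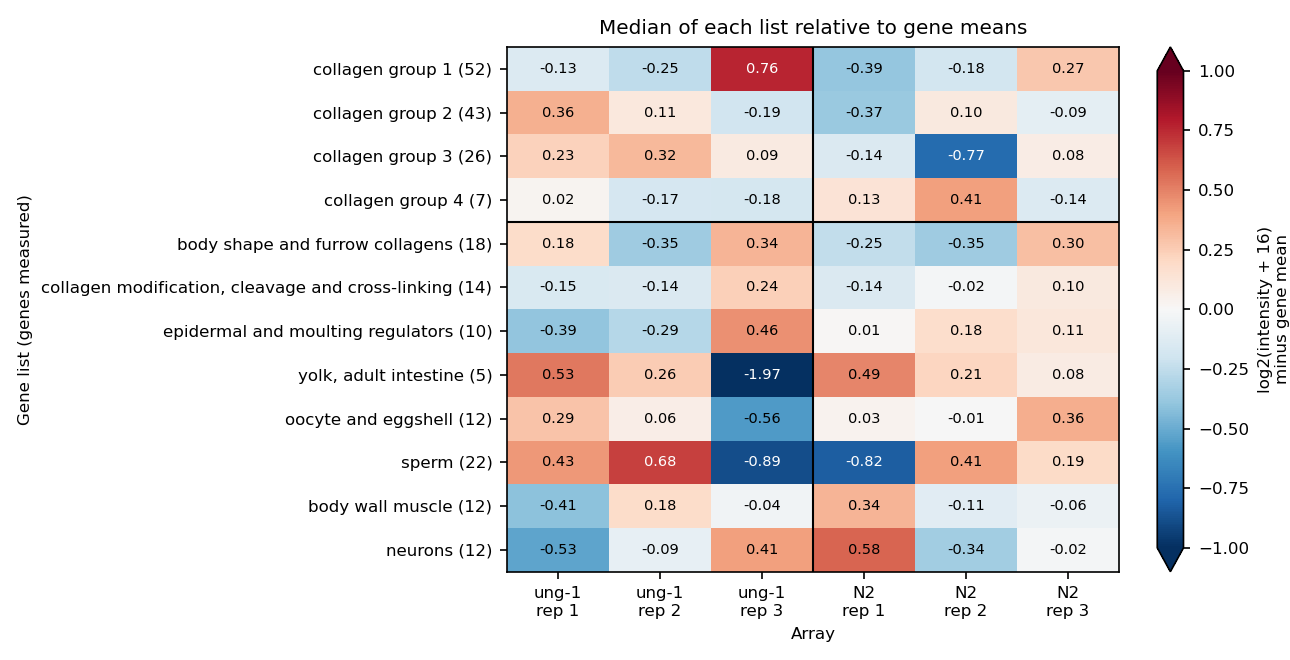
Each cell is the median, over the genes of a row, of log2(intensity + 16) minus the gene's own mean on 1 array (columns), with the number of genes in parentheses and colours cut at -1 and 1. Mutant replicate 3 reads 0.76 for collagen group 1, -1.97 for yolk genes and -0.89 for sperm genes, and N2 replicate 2 reads -0.77 for collagen group 3.

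Genes that work with the numbered collagens followed several patterns. Of the 18 measured body shape and furrow collagens (dpy, sqt, rol, bli and lon-3), 15 had a log2 fold change above 0, with a median of 0.23, and none passed the test. The bright gene dpy-13 read 6803, 7429 and 6551 in the mutant and 4001.9, 3652.6 and 6753 in N2. The bright gene dpy-4 read 9205, 10003 and 9114 in the mutant and 6041, 6201 and 9300.5 in N2. N2 replicates 1 and 2 were low for both. The collagen gene rol-8, singled out after its values were seen, read 1263.8, 897.4 and 7084 in the mutant and 1099.8, 3005.6 and 5374 in N2, high on the same replicate 3 arrays as the first group. Of the 14 genes for collagen modification, cleavage and cross-linking, 6 were above 0 and 8 below, with a median of -0.014. In this list bli-3, the dual oxidase gene that cross-links the cuticle, and dpy-18, a prolyl 4-hydroxylase subunit gene, were also singled out after the fact. The gene bli-3 read 270.1, 433.1 and 1071.0 in the mutant and 335.1, 211.5 and 657.5 in N2, and dpy-18 read 695.9, 375.8 and 1602.4 in the mutant and 664.0, 687.7 and 816.0 in N2, and both were highest on mutant replicate 3. Of 10 epidermal and moulting regulators, 3 were above 0 and 7 below. The period-related gene lin-42, which times moulting, had the smallest p of this list and read 205.8, 256.6 and 230.2 in the mutant and 296.6, 367.0 and 377.8 in N2, short of the threshold (log2 fold change -0.555, SE 0.164, limma adjusted p = 0.999). The basement membrane collagens emb-9, let-2 and cle-1, which are not part of the cuticle, were all below 0 with a median of -0.30.

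The comparison of the genotypes asked whether collagen levels differed between the mutant and N2. No collagen gene passed limma's adjusted p of 0.05 over all 22548 probe sets, where the background was 0% of probe sets (0 called, with 435 at an unadjusted limma p under 0.05). At an unadjusted limma p under 0.05, 7 members (5.47%) were higher in the mutant and 0 lower, against a background of 0.578% of genes higher and 1.28% lower. The smallest p of a member was 0.00859, with a limma adjusted p of 0.999. The median log2 fold change, mutant minus N2 on the scale of log2(intensity + 16), was 0.27 for members and -0.04 for all genes. It was above 0 in 106 of 128 members (82.8%), against a background of 41.7% of genes. The members share the 6 arrays and are not independent of each other. Some other lists also differed between the same genotypes: 22 of 22 sperm genes were above 0 (median 0.135), against 0 of 5 yolk genes (median -0.394). Of 12 oocyte and eggshell genes, 2 were above 0 (median -0.194). Body wall muscle genes (5 of 12 above 0, median -0.040) and neuron genes (4 of 12, median -0.060) had medians near that of all genes. None of these genes passed the test, and genes of 1 list are not independent of each other. The 4 ratios of 3′ to 5′ control probe sets were lower in the mutant as well. The part of these differences in the collagen shift was not tested.

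This shift was spread unequally over groups and arrays. The median log2 fold change was 0.29 in the first group, 0.19 in the second, 0.47 in the third and -0.30 in the fourth. Positive members numbered 43 of 52, 38 of 43, 25 of 26 and 0 of 7. The groups were made from these same values with the difference between genotypes left in. The sign within a group was thus partly set by the grouping and is no separate result. Relative to gene means, the members' median stood at 0.15, -0.027 and 0.10 on mutant replicates 1, 2 and 3. It stood at -0.29, -0.081 and 0.058 on N2 replicates 1, 2 and 3, so N2 replicate 1 was the lowest array and N2 replicate 3 lay between mutant arrays. Between arrays of the same number the mutant median was the higher in all 3 pairs. N2 replicate 1 was the lowest array in 47 members (36.7%), against 11.15% of all genes. Without that array the members' median was 0.14, with 85 of 128 above 0, and without N2 replicate 3 it was 0.37. Without mutant replicate 3 the count was 84 of 128. The share of all genes above 0 was not computed with these arrays left out.

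The 3 mutant values lay above the 3 N2 values in 13 members (10.2%), against a background of 1.95% of genes, and below them in 3 members (2.34%), against a background of 4.46%. The 13 were col-71, col-93, col-101, col-107, col-115, col-125, col-132, col-133, col-137, col-146, col-147, col-160 and col-182, and 7 of them were bright. Of the 13, 9 were read by probe sets that can match several transcripts. Among the 77 members without such an ending, 4 lay above and 3 below. Some of the 13 ran nearly alike, such as col-125 with col-107 (r = 0.997) and col-93 with col-147 (r = 0.991). The 13 are thus not separate readings. The 3 below were col-75, col-163 and col-187, all of the fourth group, which was itself made from these values. In several of the 13 the gap was narrow. The gene col-182, with 219.7, 165.4 and 164.8 in the mutant and 140.7, 158.5 and 145.7 in N2, was separated by less than the spread within either genotype. For col-93 the lowest mutant array, at 15576, and the highest N2 array, at 15076, were also close.

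**Figure D5:**
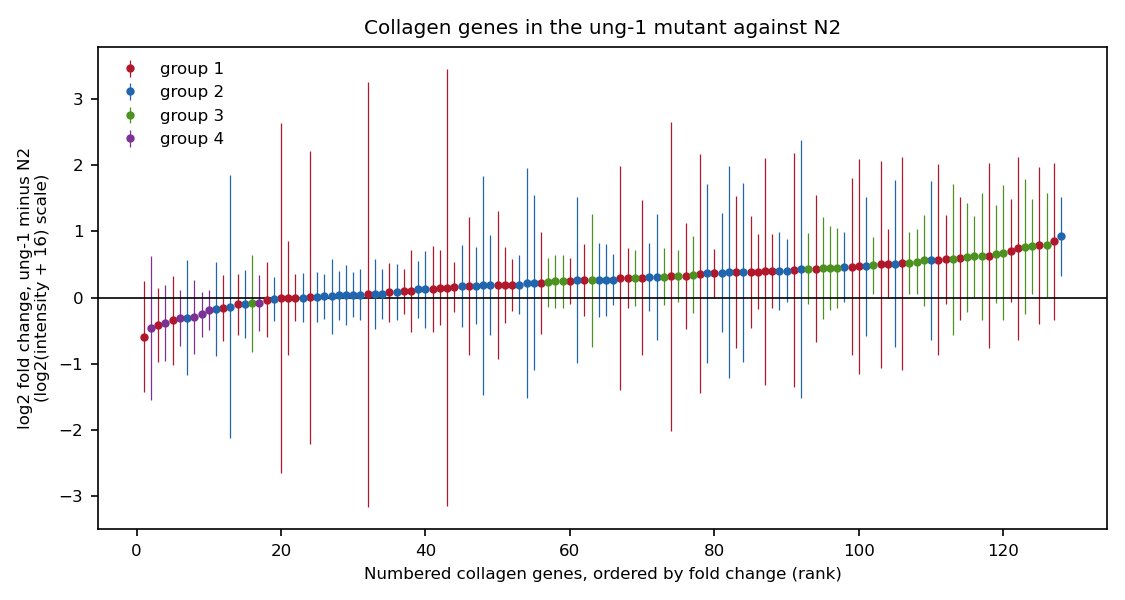
Log2 fold change of each numbered collagen gene, ung-1 mutant minus N2, on the log2(intensity + 16) scale (vertical axis), ordered from lowest to highest (horizontal axis, rank); bars are 95% confidence intervals from limma, with n = 3 arrays per genotype, and colours mark the 4 groups. Points lie above 0 for 106 of 128 genes, and no gene passed the adjusted test.

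None of the members at the ends of this range passed the test, and each had a limma adjusted p of 0.999. The gene col-101, read by a probe set with an _s_at ending, had the highest fold change and the smallest p of the family. It read 996.3, 715.6 and 497.1 in the mutant and 337.1, 386.7 and 375.9 in N2, with the genotypes apart and mutant replicate 3 closest to N2. Its mean was 736.3 ± 250.2 in the mutant and 366.6 ± 26.09 in N2, for a log2 difference of 0.92 (SE 0.25, 95% confidence interval 0.320 to 1.526). The gene col-139 had a mean of 2701.8 ± 507.9 in the mutant and 1631.5 ± 658.2 in N2 and a log2 fold change of 0.79 (SE 0.33, 95% confidence interval 0.008 to 1.577). It was 0.44 without N2 replicate 2, the low array of its group. The probe set of col-139 also had an _s_at ending. The gene col-98 read 518.6, 1104.8 and 858.9 in the mutant and 533.1, 351.4 and 503.5 in N2, where mutant replicate 1 lay within the N2 range, and the log2 difference came to 0.77 (SE 0.30, 95% confidence interval 0.053 to 1.495).

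Among bright members, col-146 read 6082, 7723 and 6552 in the mutant and 4341.3, 3990.8 and 5940.5 in N2. The gene col-133 read 5279, 5405 and 4450.1 in the mutant and 3324.8, 3160.4 and 4372.6 in N2. In both, the 3 mutant arrays lay above the 3 N2 arrays, with N2 replicate 3 nearest. Their log2 fold changes were 0.53 (SE 0.20, 95% confidence interval 0.053 to 0.998) and 0.49 (SE 0.18, 95% confidence interval 0.057 to 0.917). The gene col-95 had a log2 fold change of 0.54 (SE 0.21, 95% confidence interval 0.048 to 1.029), with mutant replicate 3, at 4120.0, below N2 replicate 3, at 4274. The probe sets of col-146, col-133 and col-95 all had an _x_at ending. The genes col-174 and col-48, of the first group, had log2 fold changes of 0.85 (SE 0.50, 95% confidence interval -0.337 to 2.039) and 0.79 (SE 0.50, 95% confidence interval -0.393 to 1.973) with overlapping arrays. The value of col-174 ran from 0.41 without N2 replicate 2 to 1.36 without N2 replicate 3, and that of col-48 was 0.26 without mutant replicate 3.

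At the lower end, col-113 had a log2 fold change of -0.59 (SE 0.35, 95% confidence interval -1.429 to 0.246). It read 416.3, 406.6 and 857.3 in the mutant and 661.2, 1159.9 and 669.9 in N2, with mutant replicate 3 inside the N2 range, and the value was -0.935 without that array and -0.33 without N2 replicate 2. The gene col-151 followed at -0.46 (SE 0.46, 95% confidence interval -1.541 to 0.626), which became -0.0589 when mutant replicate 3 was left out and -0.885 when mutant replicate 1 was. The genes col-148, col-127 and col-33 had log2 fold changes of -0.42 (SE 0.24), -0.38 (SE 0.24) and -0.34 (SE 0.28). Leaving out 1 array moved col-148 to between -0.577 and -0.226, col-127 to between -0.608 and -0.241, and col-33 to between -0.639 and -0.131. The genotypes overlapped in all 5 of these genes.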

How the data were processed

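Array intensities of 3 samples labelled ung-1 mutant and 3 labelled wild type N2 were compared, with groups and replicate numbers from the sample titles. Per the labels, total RNA was extracted with TRIZOL and labelled with biotin. The deposited values are probe set intensities on a linear scale. The authors' summarisation and scaling of the probes were not given in the sources used here. In the deposited table, 1361 cells held spreadsheet day numbers in place of intensities between 1.17 and 31.12 and were restored. No collagen probe set had such a cell.

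Intensities were put on the log2(intensity + 16) scale without further normalization, and 77 control probe sets were left out. Of 22548 probe sets, 20766 named 1 gene, 887 several and 895 none in the platform annotation, and 20701 matched the RefSeq gene table (assembly WBcel235). Genotypes were compared by lmFit and eBayes (limma 3.58.1, R 4.3.3). P-values were adjusted by Benjamini-Hochberg across the 22548 probe sets, and 0.05 was the threshold. The fit was first tested on simulated data. Correlations, grouping and plots used Python 3.11.15, scipy 1.17.1 and matplotlib 3.10.9. No label says that a replicate number marks a shared culture or day, and the main fit had no block.

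The members and gene lists were chosen with earlier results of these data known. Genes named are the members with the highest and lowest mean, fold change and SD, those with the smallest p, those closest to each group's mean, neighbours in gene order, members with a known role, and up to 3 genes per other list by smallest p. The genes col-45, col-106, col-107, col-123, rol-8, bli-3 and dpy-18, and the members listed as lying apart, were singled out after their values were seen. A planned comparison of members by protein identity was not done. Alternatives were other offsets, quantile normalization, median centring, an intensity trend, array weights, the deposited values with unrestored cells, filters on dim or multi-match probe sets, a replicate block and leaving out arrays.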

Additional observations from a re-analysis of the deposited data

How the results depend on the processing

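The count of probe sets past the adjusted threshold was 0 in 16 of 19 alternatives and from 0 to 0 when 1 array was left out. It was 6 with the values as deposited, including ung-1 and bli-4, and 1, ung-1, with an intensity trend in the prior variance and with array weights. None of these was a numbered collagen. At an unadjusted limma p under 0.05 the main comparison had 435 probe sets. The number of collagen genes above 0 was 65 of 80 without probe sets ending in _s_at, _x_at or _a_at, where fewer genes are measured, and their median log2 fold change was then 0.187. Leaving out 1 array gave counts from 84 (without mutant replicate 3) to 110 (without N2 replicate 2), and medians from 0.14 (without N2 replicate 1) to 0.373 (without N2 replicate 3). The share of all genes above 0 was not computed in any alternative, so these counts have no background. At an unadjusted limma p under 0.05, 155 probe sets were higher and 280 lower in the main fit. Without mutant replicate 3 they were 452 and 379. With both arrays numbered 3 left out, an alternative chosen after seeing the data, the count was 95 and the median 0.239. With mutant replicate 3 and N2 replicate 2 left out, chosen in the same way, they were 86 and 0.171. The median pairwise r was 0.0686 with each genotype's mean subtracted, and from 0.0577 (without N2 replicate 1) to 0.244 (without N2 replicate 2) when 1 array was left out. The cause of these moves was not tested. With the replicate number as a block, 0 probe sets passed, 106 collagen genes were above 0 and their median was 0.268. At an unadjusted limma p under 0.05, 8 collagens were then higher in the mutant and 0 lower, and 1 of the 8 was among the 7 without the block. Deviations from genotype means of same-numbered arrays had r of -0.187, 0.0899 and 0.104 over all probe sets. Over the collagens they had r of 0.48, 0.453 and 0.634, and each array correlated best with its own number. Deviations within a genotype sum to 0 over its arrays, so these r are not independent of each other. What the replicate numbers mark was not tested. In all 3 same-numbered pairs 35 collagens (27.3%) were higher in the mutant and 8 (6.25%) lower, against 5.79% and 12.4% of all genes. The 13 collagen genes named for fold change or p kept their direction in all 227 combinations of gene and setting, with a smallest limma adjusted p of 0.669. They were chosen on these same arrays, which made a kept direction likely, so this is no separate test of them. No detection calls were used, so whether dim collagens lay above background was not tested.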
